A study of Mus musculus with 24 samples.

Results

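The nuclear genes for the subunits of oxidative phosphorylation were taken from the array by symbol: Ndufa, Ndufb, Ndufc, Ndufs, Ndufv, Sdha to Sdhd, Uqcr, Cox4 to Cox8 and Atp5. The rule gave 90 of the 18193 genes that had a probe set with exactly 1 symbol. Each gene was represented by its probe set of highest mean over all 24 arrays, and 87 of the 90 passed a filter that left out the dimmest 40% of probe sets. They comprised 33 of 34 genes of complex I, 8 of 8 complex I assembly factors whose symbols share the prefix, 4 of 4 of complex II, 8 of 8 of complex III, 17 of 19 of complex IV and 17 of 17 of complex V. The 3 that did not pass were Ndufb4, Cox4i2 and Cox7b2. A further 10 probe sets with such a symbol carried several symbols and were left out.

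The mice descended from C57BL/6J and A/J, which are inbred strains, and came from selection on contextual fear conditioning; total RNA was taken from hippocampus or amygdala. Animals carried the label low or high freezing, which gave 4 groups of 6 arrays: hippocampus low, hippocampus high, amygdala low and amygdala high. Neither age, sex, generation of selection, nor whether an array holds 1 animal or a pool is given in the labels, so every p-value reflects array-to-array spread only, which may be technical. Whether a hippocampus array and an amygdala array share an animal is not given either. The number of arrays limits the precision.

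Oxidative phosphorylation is the last stage of fuel oxidation in mitochondria. Complexes I and II pass electrons to ubiquinone, complex III passes them to cytochrome c and complex IV to oxygen. Complexes I, III and IV pump protons across the inner membrane, and complex V, the ATP synthase, makes ATP as the protons flow back. A few core subunits are encoded in mitochondrial DNA; all genes described here are nuclear, and several complex IV subunits exist as a widely expressed form and a form known from heart, skeletal muscle or testis. Neurons depend heavily on this pathway to pump ions and release transmitter.

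Promoters of these genes are known for sites of the factors NRF-1, GABP (an ETS factor) and YY1. RefSeq promoters (GRCm38.p6, 250 bases before to 50 after the start) were found for 72 of the 87 genes, 77 promoters in all, and were searched on both strands for exact letters. The NRF-1 core GCGCATGC stood in 14.3% of them and in 2.71% of all 32851 promoters. The ETS core CCGGAAG stood in 24.7% against 8.86%, and the YY1 core AAGATGGC in 13.0% against 2.75%. At least 1 of these stood in 42.9% of the members' promoters and in 13.3% of all. The TATA box TATAAA stood in 10.4% against 13.6%. A match describes these letters and shows no binding.

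The promoters printed here are those of the widely expressed complex IV forms Cox6b1 and Cox8a and the restricted forms Cox6b2 and Cox8b. Cox6a1 is added as an example that holds an NRF-1 match. The pairs were picked for the region difference of the restricted form, and Cox8b passed the filter only through the amygdala, so the choice is not a result. Each runs 5′ to 3′ on the gene's own strand, from 250 bases before the start to 30 after it, with matches in capitals. Cox6a1 lies at chr5:115348929-115349208 on the minus strand and holds overlapping NRF-1 matches, 1 on each strand, and an ETS match. Cox6b1 is at chr7:30626085-30626364, minus strand, with 1 ETS match. Cox6b2, at chr7:4753065-4753344 on the minus strand, held none of the 4 motifs. Cox8a, at chr19:7217587-7217866 on the minus strand, holds an ETS match that spans the annotated start, and another lies past the stretch shown. Cox8b, at chr7:140900417-140900696 on the minus strand, holds TATAAA directly after the annotated start.
Cox6a1: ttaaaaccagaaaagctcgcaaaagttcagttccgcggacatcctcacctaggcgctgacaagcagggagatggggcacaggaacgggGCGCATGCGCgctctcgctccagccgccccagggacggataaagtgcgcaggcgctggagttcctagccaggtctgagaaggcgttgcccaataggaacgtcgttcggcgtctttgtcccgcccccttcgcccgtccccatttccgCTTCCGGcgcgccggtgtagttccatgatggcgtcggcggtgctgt
Cox6b1: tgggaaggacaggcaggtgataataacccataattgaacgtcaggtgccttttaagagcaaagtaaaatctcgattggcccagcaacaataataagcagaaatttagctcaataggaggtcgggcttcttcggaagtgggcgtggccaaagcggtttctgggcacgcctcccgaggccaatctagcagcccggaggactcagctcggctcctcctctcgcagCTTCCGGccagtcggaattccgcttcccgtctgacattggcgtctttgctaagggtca
Cox6b2: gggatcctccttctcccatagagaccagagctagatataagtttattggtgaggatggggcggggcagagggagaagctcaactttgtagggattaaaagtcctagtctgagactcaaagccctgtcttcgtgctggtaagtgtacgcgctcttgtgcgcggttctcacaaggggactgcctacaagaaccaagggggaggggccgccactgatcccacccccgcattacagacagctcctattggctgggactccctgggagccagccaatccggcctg
Cox8a: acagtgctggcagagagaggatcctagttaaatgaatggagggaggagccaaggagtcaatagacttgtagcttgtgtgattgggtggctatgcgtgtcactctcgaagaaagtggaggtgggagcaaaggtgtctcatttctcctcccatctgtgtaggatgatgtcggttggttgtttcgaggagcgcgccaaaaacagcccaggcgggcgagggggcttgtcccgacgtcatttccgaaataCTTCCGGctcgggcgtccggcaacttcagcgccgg
Cox8b: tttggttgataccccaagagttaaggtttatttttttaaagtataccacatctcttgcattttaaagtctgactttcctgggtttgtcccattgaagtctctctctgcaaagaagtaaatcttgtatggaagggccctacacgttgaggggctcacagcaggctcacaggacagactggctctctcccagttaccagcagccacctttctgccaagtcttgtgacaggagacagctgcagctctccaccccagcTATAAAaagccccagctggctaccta

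Values were compared as log2(intensity + 16), and a fold is on that scale, which understates the change of dim genes. Tests were limma's moderated tests over all 24 arrays, two-sided, with Benjamini-Hochberg adjustment over 27022 probe sets and a threshold of 0.05. A gene that passed is called higher or lower. No test set levels of different probe sets against each other. A highest mean or the word dim refers to probe set intensity only.

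The amygdala carried slightly higher levels of most oxidative phosphorylation transcripts than the hippocampus. Of 87 members, 56 were higher in the amygdala and 3 were lower (55 and 3 of 86 without Cox8b, described with complex IV), and the median log2 difference was 0.147, a 1.11-fold change. Over all 27022 probe sets, 51.4% were called, 27.2% higher and 24.2% lower, with a median log2 difference of 0.017; the members were called in 67.8% of cases and called higher in 64.4%. With 1 brightest probe set for each of 12491 genes, the median over all genes was 0.037 and 56.4% were called. In these bulk samples, fewer cells of a type and less RNA per cell cannot be told apart.

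The size of the shift depended on the scaling. When each array was instead centred on its median, the members' median fell to 0.071 and 31 of 87 were called, 25 higher and 6 lower. That total is a smaller share than the 52.7% of all probe sets called under this centring, so the excess in the total called was not kept. By direction, the called members still leaned higher, where all 27022 probe sets leaned lower (5624 higher and 8609 lower). The median over all probe sets was -0.059 under this centring, against 0.017 before. The same centring moved all features the same way: 39.5% of all called probe sets were then higher, against 52.9% before. Quantile normalization gave 61 called members, 57 higher and 4 lower, where 52.0% of all probe sets were called. Array medians of intensity were themselves 36.9 to 41.6 in the hippocampus and 39.5 to 43.6 in the amygdala.

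**Figure D1:**
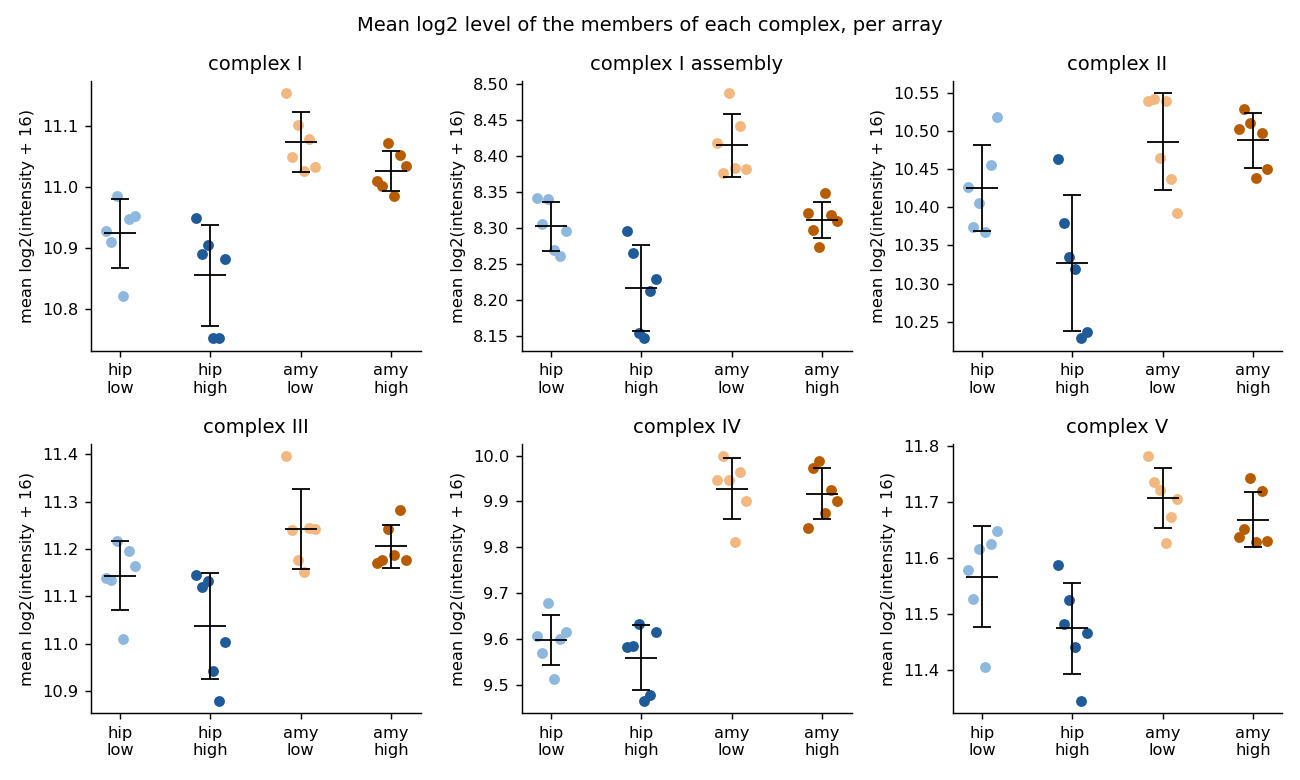
Mean log2(intensity + 16) of the members of each complex on each array (points), with the group mean and SD (bars, n = 6), for hippocampus (hip) and amygdala (amy) of low and high freezing animals. The axes do not start at 0. For complex IV all amygdala arrays, 9.81 to 10.0, sit above all hippocampus arrays, 9.46 to 9.68, a gap carried largely by 4 dim isoforms: without them the ranges overlap.

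The mean log2 level of the 87 members was 10.55 ± 0.0581 in hippocampus low, 10.47 ± 0.0738 in hippocampus high, 10.72 ± 0.0443 in amygdala low and 10.68 ± 0.0316 in amygdala high (SD, n = 6 arrays each). The hippocampus arrays spanned 10.37 to 10.60 and the amygdala arrays 10.64 to 10.78. Without the isoforms Cox6a2, Cox6b2, Cox7a1 and Cox8b the ranges overlapped, 10.60 to 10.84 and 10.82 to 10.99. In the plot of mean level by complex, these 4 genes carried much of complex IV: the regional gap of its mean was 0.344 over 17 members and 0.105 over the other 13. These means are a description and have no test.

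In complex I, which oxidises NADH, 23 of 33 members were higher in the amygdala, 1 was lower, and 29 lay above 0 (median log2 difference 0.16). The leading genes encode accessory subunits of the membrane arm. Ndufb10 read 1498, 1858 and 1968 intensity units (lowest, median and highest of 12) in the hippocampus and 2161, 2393 and 2747 in the amygdala. Its regions did not overlap, with a difference of 0.41 (1.33-fold, adjusted p = 1.7e-09).

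Ndufb8 spanned 1652 to 2034 in the hippocampus and 2089 to 2629 in the amygdala, medians 1819 and 2407 (log2 difference 0.40, adjusted p = 5.87e-10). Ndufb7 spanned 1252 to 1687 and 1784 to 2102 (0.37, adjusted p = 7.94e-09). Ndufa1, an X-linked subunit, spanned 2914 to 3805 and 3999 to 4866 (0.33, adjusted p = 7.85e-08). In all 3 the 12 amygdala arrays lay above the 12 hippocampus arrays.

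Ndufb1, a small accessory subunit, went the other way. Its medians were 160 in the hippocampus and 138 in the amygdala, with ranges of 144 to 189 and 107 to 166 that overlapped (log2 difference -0.20, 95% interval -0.33 to -0.06, adjusted p = 0.0118). Ndufb9, the complex I gene of highest mean, was 1.12-fold higher in the amygdala (adjusted p = 0.00258; 0.158 with median centring).

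Among the 8 assembly factors, which build complex I and are not part of it, 2 were higher and 1 was lower (median 0.111), a smaller share called than the 51.4% over all probe sets. With arrays centred on their median, 1 was higher and 2 were lower. Ndufaf2 read 205, 230 and 266 in the hippocampus and 267, 333 and 415 in the amygdala (log2 difference 0.48, 1.39-fold, adjusted p = 1.77e-08). These ranges only just cleared each other. Ndufaf3 was lower, with medians of 540 and 475 (log2 difference -0.14, adjusted p = 0.00991), and its ranges overlapped. Ndufaf8 had an adjusted p of 0.0446 at 0.11, and in 21 of 35 alternatives its call changed.

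Complex II, succinate dehydrogenase, links the tricarboxylic acid cycle to the respiratory chain. Of its 4 genes, Sdhc, a membrane anchor, was higher by 0.31 (adjusted p = 9.17e-06) and Sdha, the flavoprotein, by 0.12 (adjusted p = 0.029). Sdhd had a difference of 0.08 (adjusted p = 0.122). Sdhb, the iron-sulphur subunit, read 2488 in the hippocampus and 2388 in the amygdala as medians, with a difference of -0.06 (adjusted p = 0.189).

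All 8 complex III members lay above 0 and 5 were called higher (median 0.161). Uqcrh, the hinge protein, spanned 2853 to 3765 in the hippocampus and 3831 to 4696 in the amygdala (log2 difference 0.30, adjusted p = 1.58e-07). Uqcrb, of highest mean in the complex, was 1.15-fold higher (adjusted p = 0.000535). The core proteins Uqcrc1 and Uqcrc2 and the Rieske protein Uqcrfs1 did not pass, with differences of 0.02, 0.01 and 0.02. Whether small and core subunits differ from each other was not tested.

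All 17 complex V members lay above 0 and 14 were called higher (median 0.148). Atp5j2 spanned 3097 to 3724 in the hippocampus and 3751 to 4649 in the amygdala (log2 difference 0.26, adjusted p = 4.79e-06). Atp5j, coupling factor 6, spanned 2628 to 3043 and 3078 to 3856 (0.25, adjusted p = 1.44e-06). Neither pair of ranges overlapped.

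Atp5md, a small subunit of the membrane part, had a larger difference, 0.34, but a wider spread, 1821 to 4940 against 3176 to 5215 (adjusted p = 0.0126; 0.0634 with median centring). The 3 genes for the proton-carrying c ring had differences of 0.12 (Atp5g1), 0.15 (Atp5g2) and 0.13 (Atp5g3), with adjusted p of 0.0218, 0.00343 and 0.0137. None of the 3 passed with arrays centred on their median (adjusted p = 0.45, 0.193 and 0.336). Atp5g1 also did not pass with unsuffixed probe sets (0.146), nor Atp5g3 with quantile normalization (0.263), and Atp5g2 turned to -0.045 with the mean of its probe sets (0.601). Of the catalytic and core subunits, Atp5a1, Atp5b and Atp5d did not pass (adjusted p = 0.102, 0.0672 and 0.211). Atp5c1 and Atp5e were higher, by 0.11 and 0.24 (adjusted p = 0.0142 and 1.01e-05).

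**Figure D2:**
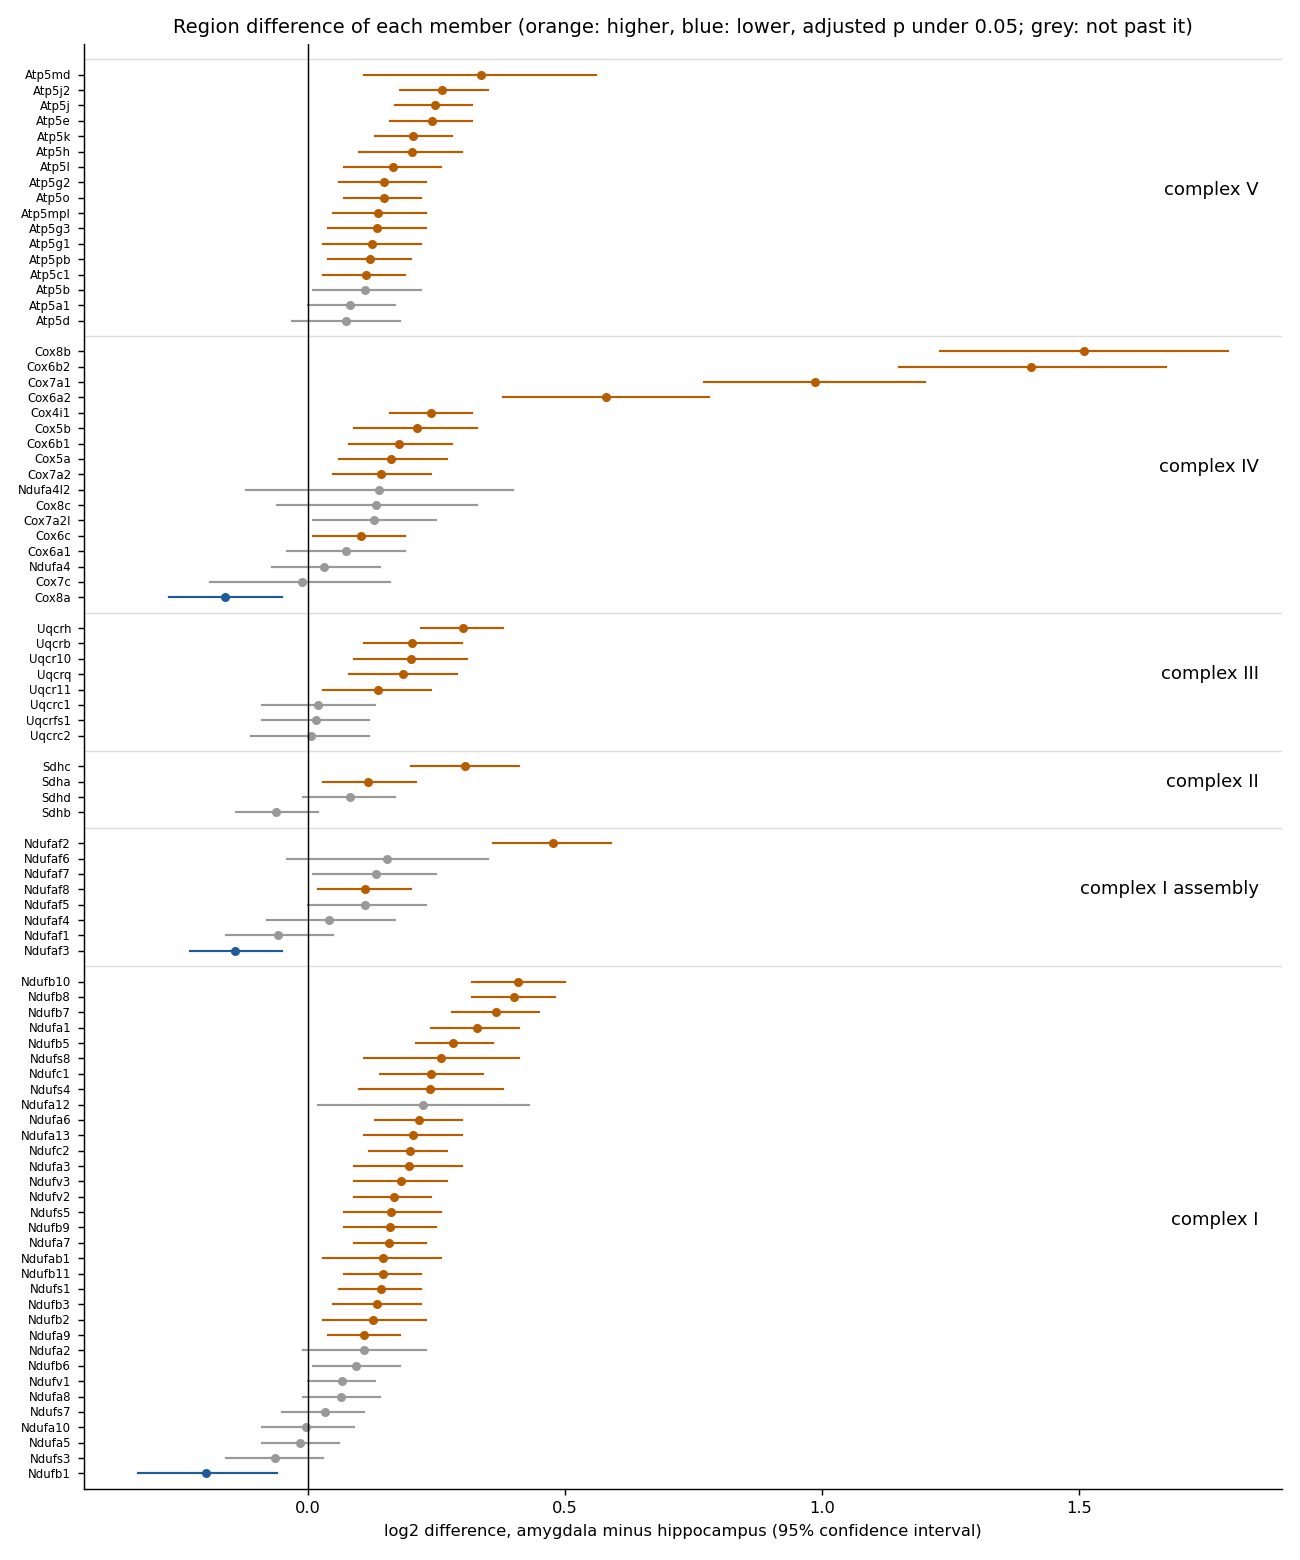
Log2 difference between amygdala and hippocampus for each of the 87 members (points) with 95% confidence intervals (lines), grouped by complex; colours mark an adjusted p under 0.05. Most members lie just above 0, and 4 dim complex IV isoforms (Cox6a2, Cox6b2, Cox7a1 and Cox8b) lie above 0.5. Cox8b passed the filter only through the amygdala and had to differ, so its interval and colour are not a test. The size of its difference is set by the offset.

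In complex IV, cytochrome c oxidase, 10 of 17 members were higher, 1 was lower and 15 lay above 0 (median 0.142). At the offset of 16 this complex held the 4 members with a log2 difference above 0.5, all of them tissue-restricted isoforms and all dim. With an offset of 64 Cox6a2 fell to 0.385, and with an offset of 1 Ndufaf2 reached 0.502. The other 52 members called higher, in all complexes, differed by 0.1 to 0.48. Cox8b, known as the heart and muscle form of subunit VIII, read 1.57, 12.0 and 20.5 in the hippocampus and 33.8, 52.7 and 138 in the amygdala (lowest, median and highest of 12). The regions did not overlap. Its hippocampus mean of 12.0 lay under the lowest mean the filter kept, 24.24, so it passed only through the amygdala (mean 66.7) and had to differ. The offset set the size of its log2 difference, 0.753 with an offset of 64 and 2.44 with an offset of 1, so it is given here as levels, without a fold or test. It was the only such member.

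Cox6b2, known as a testis form of subunit VIb, read 32.4, 46.4 and 67.9 in the hippocampus and 95.4, 168 and 218 in the amygdala. Again no array overlapped, and the difference was 1.41 (95% interval 1.15 to 1.67, 2.65-fold, adjusted p = 1.37e-10), with 0.964 to 1.66 over the alternatives. Cox7a1, the heart and muscle form of subunit VIIa, spanned 11.5 to 38.0 and 42.7 to 76.9 (0.99, adjusted p = 3.95e-09). Its hippocampus mean of 24.5 was at the filter's limit, and its difference ran from 0.528 with an offset of 64 to 1.38 with an offset of 1. Cox6a2, the heart and muscle form of subunit VIa, spanned 42.7 to 71.3 and 68.4 to 139, with an overlap (0.58, 1.5-fold, adjusted p = 1.04e-05).

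The widely expressed partners had smaller differences. Cox6b1 was 1.13-fold higher (adjusted p = 0.00301) and Cox7a2 1.10-fold higher (adjusted p = 0.0128). With median centring neither passed (adjusted p = 0.123 and 0.312), nor did Cox7a2 with quantile normalization (0.162) or unsuffixed probe sets (0.369). Cox6a1 had a difference of 0.07 (adjusted p = 0.278), which was -0.09 under quantile normalization (adjusted p = 0.00279). Cox8a was lower in the amygdala, with medians of 3108 and 2811 (log2 difference -0.16, 95% interval -0.27 to -0.05, adjusted p = 0.0124). The difference within each pair of forms was not itself tested.

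Of the other subunits, Cox4i1 was 1.18-fold higher. Cox5b was 1.16-fold higher at its brightest probe set, but a dim probe set of the gene was called lower (-0.34, adjusted p = 0.039), the mean of its probe sets did not pass (0.309), and neither did the brightest with median centring (0.0649). Cox5a was 1.12-fold higher and did not pass with quantile normalization (adjusted p = 0.0874) or median centring (0.2). Cox7a2l (0.13, adjusted p = 0.0579; under 0.05 in 6 alternatives), Cox8c (0.13, adjusted p = 0.255), Ndufa4 (0.03, adjusted p = 0.641) and Ndufa4l2 (0.14, adjusted p = 0.383) did not pass. Ndufa4 is counted here with complex IV, of which its product is a subunit. Cox4i2 read 2.64 to 29.8 in the hippocampus and 2.07 to 26.4 in the amygdala, Cox7b2 13.2 to 40.6 and 5.88 to 33.8, and Ndufb4 1.9 to 34.1 and 6.88 to 23.9, so these 3 were dim in both regions.

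**Figure D3:**
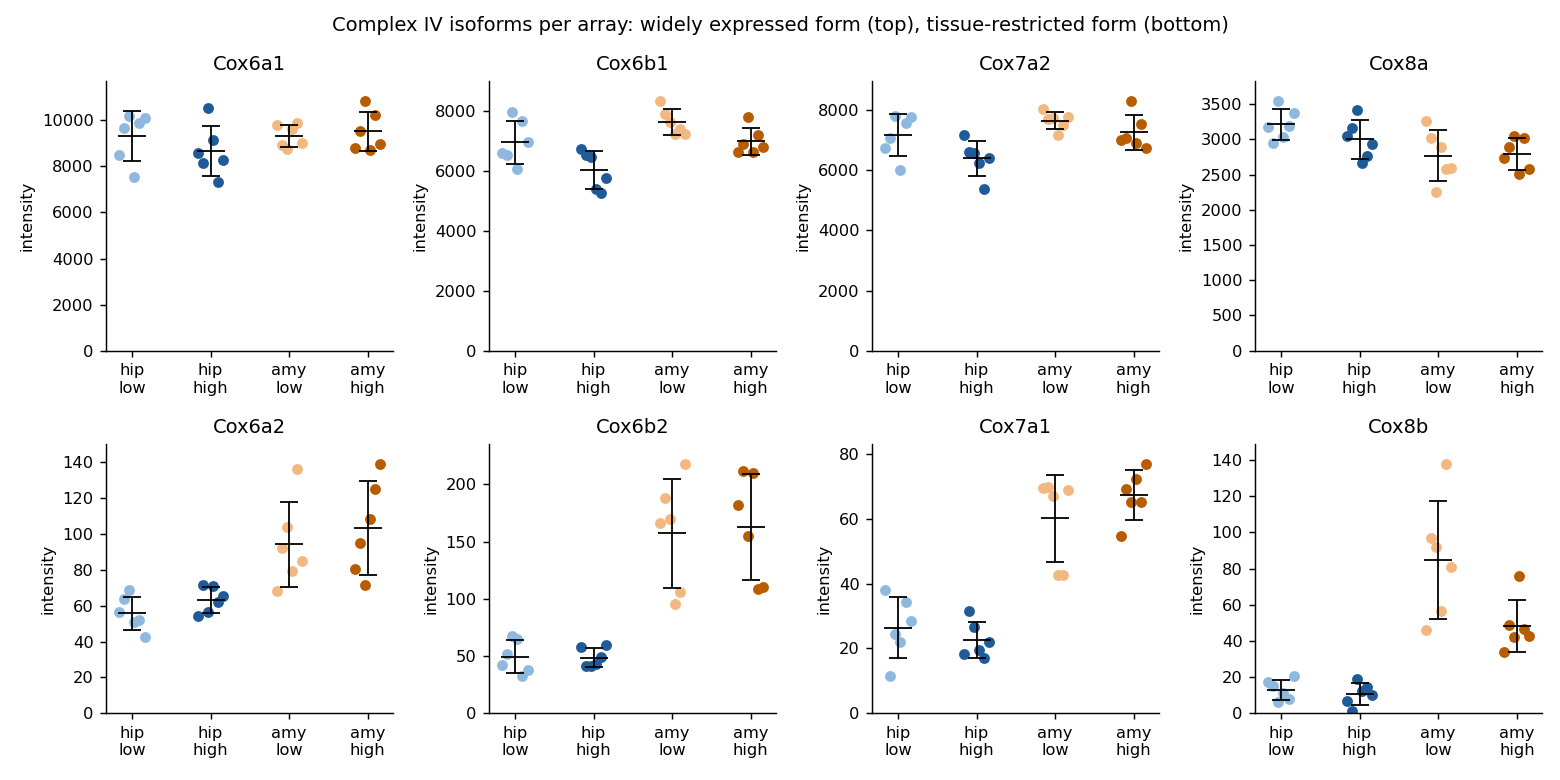
Intensity per array (points) with group mean and SD (bars, n = 6) of 4 widely expressed complex IV isoforms (top) and the tissue-restricted form of the same subunit (bottom), on linear axes that start at 0. The bottom genes stand higher on amygdala arrays, as for Cox6b2 at 95.4 to 218 against 32.4 to 67.9, while the top genes overlap between regions.

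In total 11 of 87 members had all 12 amygdala arrays above all 12 hippocampus arrays: Atp5j, Atp5j2, Cox6b2, Cox7a1, Cox8b, Ndufa1, Ndufaf2, Ndufb7, Ndufb8, Ndufb10 and Uqcrh. Cox8b is listed only as a description, because it passed the filter only through the amygdala and had to differ. Over all probe sets 7.2% did so. No member had all amygdala arrays below. Where a member had further probe sets past the filter (46 genes, 73 probe sets), 61 had the same sign as the chosen one and 12 the opposite, and 2 of the opposite ones were called, for Ndufs4 (-0.20) and Cox5b.

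Cell type and region markers differed between the regions, where 27.2% of all probe sets were called higher and 24.2% lower. All 9 oligodendrocyte markers were higher in the amygdala (median log2 difference 2.01), with a summed intensity of 14390 to 19526 over the hippocampus arrays and 37133 to 51477 over the amygdala arrays. Of 9 general neuron markers, 6 were lower and 2 higher (median -0.41; summed 29174 to 36303 and 25112 to 29284). All 6 markers of the central amygdala and striatum were higher, as were all 6 of choroid plexus and ependyma and 6 of 8 of microglia, while 7 of 8 hippocampal and 5 of 5 excitatory neuron markers were lower. The basolateral amygdala list, which shares Neurod6 with the excitatory neuron list, had 2 of 3 members lower and 1 higher. The astrocyte list was mixed, with 4 of 8 higher and 2 lower (median 0.156), and 3 of 6 endothelial markers were higher (median 0.187). The part of these cell types in the members' region difference was not tested.

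Genes around the complexes were called in both directions. Of 94 measured genes in 11 lists of assembly factors, carriers and fuel pathways, 27 were higher and 17 lower in the amygdala, with a median of 0.019. That is 28.7% and 18.1%, near the 27.2% and 24.2% over all probe sets, so the counts that follow are a description. Cycs, cytochrome c, was higher by 0.16. In complex IV assembly 7 of 17 were higher, with Cox20 at 0.52, and 3 lower, with Sco2, a copper chaperone, at -0.32. Complex V assembly split, with Atpaf1 at 0.63 and Tmem70 at -0.34, and for complex III assembly Ttc19 was lower at -0.37. Complex II assembly had 1 of 4 higher (Sdhaf3, 0.20), and 0 of 7 further complex I assembly factors were called.

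In the tricarboxylic acid cycle and pyruvate dehydrogenase list 6 of 18 were higher and 3 lower, from Pcx, pyruvate carboxylase, at 0.65 to Dlat, a pyruvate dehydrogenase subunit, at -0.38 (median -0.005). In glycolysis 3 of 13 were higher and 5 lower, from Ldhb, a lactate dehydrogenase, at 0.81 (adjusted p = 4.72e-15) to Pfkl, a phosphofructokinase, at -0.92. Ppargc1a, a coactivator of mitochondrial biogenesis, was higher by 0.59 (adjusted p = 0.000598) and Yy1 lower at -0.19; 3 of the 12 regulators were higher and 2 lower. Of 9 carriers and channels 3 were higher, led by the ADP carrier Slc25a5 (0.32), and 1 was lower, the glutamate carrier Slc25a22 (-0.69). Of 4 uncoupling proteins and creatine kinases, Ckb (0.57) was the higher end and Slc25a14 (-0.24) the lower, with 2 higher and 1 lower.

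In the hippocampus no member passed between high and low freezing animals, and 0.0518% of all probe sets did. At an unadjusted p under 0.05 there were 23 members, 22 of them lower in high freezing animals, where 11.8% of all probe sets reached that level and 5.37% did so as lower. Of the 87, 16 lay above 0 and the median log2 difference was -0.091, against 0.005 over all probe sets; the smallest adjusted p was 0.166. Every complex had a median below 0: -0.07 for complex I, -0.13 for complex II, -0.12 for complex III, -0.10 for complex IV and -0.08 for complex V. Among 73 further probe sets of the members, 46 had the same sign as the chosen one and 27 the opposite. With the mean of each gene's probe sets the members' median was -0.065. When single hippocampus arrays were left out, the members' median ran from -0.112 (without low replicate 4) to -0.065 (without high replicate 11).

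Atp5e, the epsilon subunit of complex V, had the smallest p. It read 1273, 1341 and 1467 in low freezing animals and 1051, 1222 and 1289 in high (lowest, median and highest of 6), so the ranges overlapped at their edge (log2 difference -0.19, 95% interval -0.31 to -0.08, adjusted p = 0.166). Cox6b1 had medians of 6780 and 6125 (difference -0.21, adjusted p = 0.211) and Atp5g1 of 1978 and 1718 (-0.19, adjusted p = 0.215). Ndufa8 and Sdha had adjusted p of 0.225 and 0.246 at -0.16 and -0.18. None of these passed.

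Array brightness differed beside the freezing label. Array medians of intensity were 36.9 to 38.8 in hippocampus low and 37.6 to 41.6 in hippocampus high, and the ranges overlapped. With arrays centred on their median, the members' median difference was -0.147, where the median over all probe sets also fell, from 0.005 to -0.05. With quantile normalization it was -0.048 for the members and -0.005 over all probe sets. The ratio of the 3′ to the 5′ control probe set of Gapdh was 0.794 to 0.882 in hippocampus low and 0.736 to 0.871 in hippocampus high (means 0.836 and 0.792). For actin it was 1.67 to 1.98 and 1.52 to 1.96. The part of brightness or of these ratios in the members' difference was not tested.

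In the amygdala no member passed, and 0.0555% of all probe sets did. Of 87, 29 lay above 0 (median -0.037, against 0.01 over all probe sets). The members' median was -0.006 with quantile normalization, where 43 lay above 0, and -0.08 with arrays centred on their median, where 14 did. Over all probe sets the medians in these settings were -0.003 and -0.033. The members' median was -0.018 without amygdala low replicate 1 and -0.022 without amygdala high replicate 10. At an unadjusted p under 0.05 there were 12 members, 11 of them lower in high freezing animals, where 10.8% of all probe sets reached that level and 4.32% did so as lower. The smallest adjusted p was 0.215. Of 73 further probe sets of the members, 48 had the same sign as the chosen one and 25 the opposite. By complex the medians ran from -0.05 in complex I to 0.02 in complex IV, with -0.12 among the assembly factors.

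Cox8b had the smallest p and the largest size of the 87. It read 46.1, 86.4 and 138 in low freezing animals and 33.8, 44.8 and 75.8 in high, with overlap (log2 difference -0.61, 95% interval -1.01 to -0.21, adjusted p = 0.215). Ndufa5, of the arm of complex I that faces the matrix, had ranges that did not overlap, 2053 to 2509 in low and 1905 to 2042 in high, at a difference of -0.16 (adjusted p = 0.258). Ndufaf2 and Ndufs7 had differences of -0.23 and -0.16 (adjusted p = 0.245 and 0.254).

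Ndufa12 had a difference of -0.41 (adjusted p = 0.281), with ranges of 3942 to 5036 and 2477 to 4826. Its 3 other probe sets gave -0.23, -0.03 and 0.12 in the same comparison, so the size depended on the probe set chosen.

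**Figure D4:**
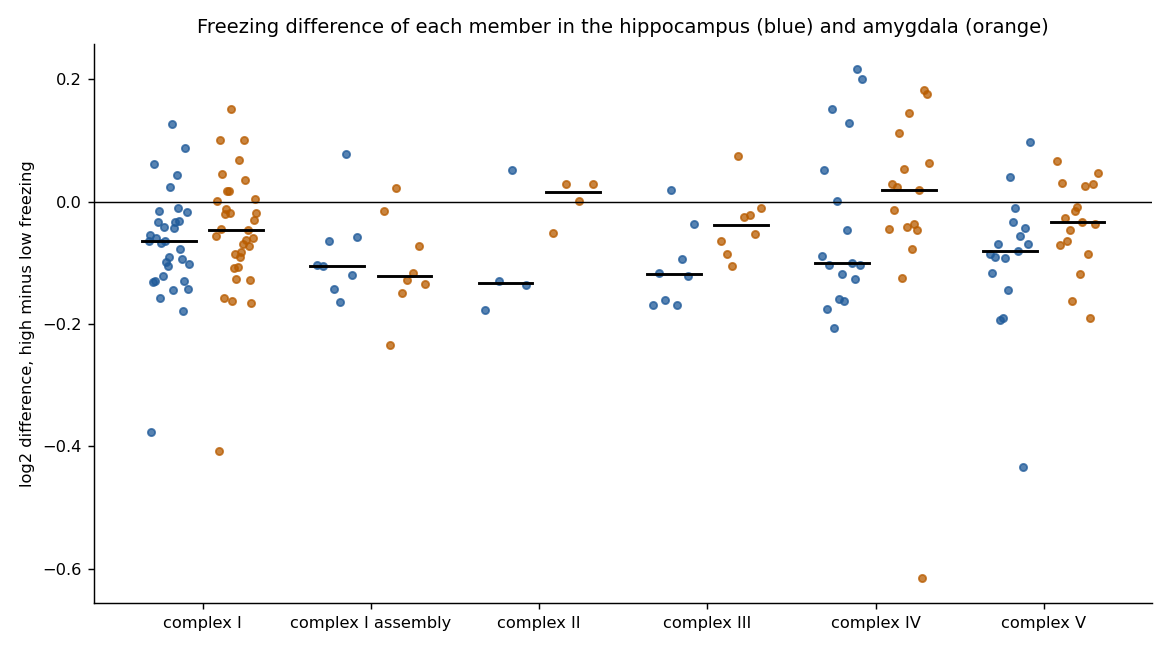
Log2 difference between high and low freezing animals for each of the 87 members (points), in the hippocampus (blue) and amygdala (orange), by complex, with the median of each set (black lines). In the hippocampus every median lies below 0, and no point in either region passed the test.

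The interaction test asked whether the freezing difference was unlike in the regions, and 0 of 87 members and 0% of all 27022 probe sets passed it. At an unadjusted p under 0.05 there were 3 members, where 6.07% of all probe sets reached that level. Ndufa4 had the smallest p, with -0.10 in the hippocampus and 0.18 in the amygdala (interaction 0.28, 95% interval 0.07 to 0.49, adjusted p = 0.774). Ndufa13, Ndufa8, Sdhb and Ndufv2 followed at 0.23, 0.18, 0.16 and 0.15, with adjusted p between 0.804 and 0.822. A p that misses the threshold does not show that the regions respond alike.

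Of the 94 genes in the surrounding lists, 0 passed in either freezing comparison. No cell type or region marker passed either, but some lists leaned one way. In the hippocampus all 8 microglia markers lay below 0 in high freezing animals (median -0.114) and all 6 of choroid plexus and ependyma above it (0.271). In the amygdala 7 of 8 astrocyte markers lay below 0 (median -0.13), 4 of them at an unadjusted p under 0.05, as did all 6 of the central amygdala and striatum (-0.279). All 5 excitatory neuron markers (0.30) and all 3 of the basolateral amygdala (0.508, lowest 0.01) lay above 0 there. Neurod6 is in both of these lists. The part of these cell types in the members' freezing differences was not tested.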

How the data were processed

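The deposited table gives each of 45101 probe sets a linear intensity on each of 24 one-colour Affymetrix arrays. The authors' software is not given here. The authors' scaling was kept. Control probe sets (64) and the dimmest 40% by mean over all arrays were left out, which left 27022 (lowest mean kept 24.24 intensity units). Values were analysed as log2(intensity + 16) with limma 3.58.1 in R 4.3.3: 1 mean per group, an intensity trend in the variance prior, 20 residual degrees of freedom, two-sided tests, Benjamini-Hochberg adjustment over 27022 probe sets and a threshold of 0.05. The fit was tested on simulated data. Symbols came from the platform annotation, in which 34958 probe sets carry 1 symbol, and promoters from RefSeq, GRCm38.p6.

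The members and lists were chosen with earlier results of these data known. Named members were the 10 highest region differences past the threshold, the 3 lower ones (up to 10 were allowed), the highest mean in each complex, 5 smallest p-values of each other comparison, and isoform sets; in each other list, the highest and lowest gene past the threshold. Other genes named (among them Sdhc, Sdhd, Uqcrh, Uqcrc1, Uqcrc2, Uqcrfs1, Atp5j, Atp5j2, Atp5a1, Atp5b, Atp5c1 and Atp5d) were chosen after their values were seen. Same-numbered arrays of the regions correlated at -0.079 to 0.084 in their deviations from group means. Their median was 0.035, against -0.005 for other numbers of the same freezing label. Numbers were not taken to pair arrays, though a shared animal is not excluded. Alternatives changed 1 choice at a time: offset, scaling, filter, variance prior, probe set choice, each region alone, a block and leaving out each array.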

Additional observations from a re-analysis of the deposited data

Results flagged for a closer look

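Among 38 named members in 4 groups, 152 groups of 6 arrays were searched for a single array that stood apart from the others by more than Dixon's 95% critical value; 7 did, and chance flags about 1 in 20 groups. Atp5e in amygdala high had a lowest array of 1362.2 intensity units, with the others at 1449.9 to 1502.3. Cox8b in amygdala high had a highest array of 75.8 against 33.8 to 48.8. Ndufb7 in amygdala high had a highest array of 2062.6 against 1784.3 to 1875.2. Cox5b in amygdala high had a highest array of 9249.1 against 6897.8 to 7725.8. Ndufa1 in hippocampus high had a lowest array of 2914.1 against 3439.0 to 3709.2. Ndufb10 in hippocampus low had a lowest array of 1631.4 against 1866.5 to 1925.2. Ndufa13 in hippocampus low had a highest array of 4073.9 against 3142.7 to 3405.5.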

How the results depend on the processing

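The 0 called members of both freezing comparisons and of the interaction stayed 0 under every alternative run, and the members' region count stayed between 53 and 61, apart from the settings named next. With arrays centred on their median the region count was 31 (25 higher, 6 lower, 28 shared) and the members' median difference 0.071. The 31 of 87 is a smaller share than the 52.7% of all probe sets called in that setting. Of all 27022 probe sets, 5624 were higher and 8609 lower there, with a median of -0.059. With only probe sets without the suffix _x, _s or _a, 66 members were left and 37 were called (33 higher, 4 lower). This share is near the 56.4% of all genes called at their brightest probe set. Leaving out each array in turn gave 55 to 61 called members and a median of 0.136 to 0.159. With the replicate number as a replicate block the count was 59 and the median 0.147. Whether same-numbered arrays share an animal is not given in the labels. Directions turned for Cox6a1 (-0.089 with quantile normalization, -0.001 with median centring), Ndufa4 (-0.044 with median centring), Ndufaf8 (-0.025 with the mean of its probe sets, -0.16 without suffixed ones), Atp5g2 (-0.045, mean of probe sets), Cox5b (-0.34, without suffixed ones; adjusted p = 0.039) and the interaction of Ndufv2 (-0.05, mean of probe sets). The cause of these changes was not tested, except that fewer members were left in the suffix setting. Arrays give no read depth; the number of 6 per group limits the precision, and dim isoforms such as Cox8b have sizes set by the offset. An alternative chosen after seeing the data left out Cox8b and gave 58 called members of 86 and a median of 0.145.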
